A study of Mus musculus with 22 samples.

Results

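Axonemal dynein heavy chains are the force-producing subunits of motile cilia, and 10 of their genes (Dnah1, Dnah2, Dnah5, Dnah6, Dnah7a, Dnah7b, Dnah9, Dnah10, Dnah11 and Dnah12) were followed in the lumbar spinal cord of mice with knee joint pain. The genes were chosen by family name and by their presence in the deposited expression table, where they are 10 of 15 genes with a Dnah symbol and 10 of 17306 genes in all. The family was picked with earlier results of these libraries known, so its values describe these mice and are not independent evidence of a direction. All 22 mice were wildtype C57BL6J, 12-14 weeks old at collection, and all received 1 mg of sodium iodoacetate (MIA) in the knee joint, a chemical model of osteoarthritis pain, so no group was free of MIA. SAFit2, an inhibitor of the stress-related chaperone FKBP51, was given at 100 mg/kg in a vesicular phospholipid gel (VPG) that releases it slowly, and Vehicle mice received the gel alone. Early mice (5 SAFit2 and 6 Vehicle) were injected on days -3 and 4 around MIA by the series' design, while the samples' protocol gives day 3 in place of -3. Late mice (5 SAFit2 and 6 Vehicle) were injected on days 20 and 27. Segments L4-L6 were collected on day 30 in every group, as cord by the labels and as quadrants of the cord on the injured side by the study's methods, so how much of the central canal each library held is not known. The titles of Early SAFit2 mice name SAFit1, whereas their treatment label gives SAFit2, which was followed. The comparisons addressed how SAFit2 relieves mechanical hypersensitivity and whether the time of dosing matters. Early and Late are also the labelled batches, so timing and batch cannot be told apart where early mice are set against late mice.

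A motile cilium bends when dynein arms on its outer microtubule doublets walk along the neighbouring doublet. Outer arms set beat frequency and are built on heavy chains such as Dnah5, Dnah9 and Dnah11. Inner arms shape the bend, with Dnah2 and Dnah10 forming the double-headed arm and Dnah1, Dnah3, Dnah6, Dnah7, Dnah12 and Dnah14 forming single-headed arms. In the spinal cord, motile cilia are carried by the ependymal cells that line the central canal and move cerebrospinal fluid. These cells are a small share of the cord, and in bulk RNA fewer ependymal cells and less dynein RNA per cell cannot be told apart.

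The RefSeq promoters (250 bases before to 50 after the annotated start, GRCm38.p6) of 5 genes are shown first: Dnah12, Dnah11 and Dnah6, which had the largest early differences, and Dnah7b, which was lower in late than in early mice, with its near copy Dnah7a, which was called in no comparison. All 10 genes had a promoter in the table. Capitals mark letters that match an X-box, the sequence read by RFX factors that switch on ciliary genes, either as GTTGC and GCAAC spaced by 3 bases (13 letters) or as GTTGCC alone, both searched on both strands.
Dnah12 (chr14:26691304-26691603, plus strand): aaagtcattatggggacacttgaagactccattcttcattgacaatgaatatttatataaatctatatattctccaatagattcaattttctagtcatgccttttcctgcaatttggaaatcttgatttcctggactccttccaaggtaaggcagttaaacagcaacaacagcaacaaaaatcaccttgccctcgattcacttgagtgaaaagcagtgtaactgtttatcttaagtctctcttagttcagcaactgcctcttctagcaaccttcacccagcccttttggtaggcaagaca
Dnah11 (chr12:118198994-118199293, minus strand): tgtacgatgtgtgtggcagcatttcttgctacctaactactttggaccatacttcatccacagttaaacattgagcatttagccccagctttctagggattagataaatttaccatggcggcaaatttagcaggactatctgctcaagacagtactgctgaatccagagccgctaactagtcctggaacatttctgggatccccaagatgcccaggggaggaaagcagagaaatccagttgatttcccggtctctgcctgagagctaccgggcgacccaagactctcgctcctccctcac
Dnah6 (chr6:73221582-73221881, minus strand): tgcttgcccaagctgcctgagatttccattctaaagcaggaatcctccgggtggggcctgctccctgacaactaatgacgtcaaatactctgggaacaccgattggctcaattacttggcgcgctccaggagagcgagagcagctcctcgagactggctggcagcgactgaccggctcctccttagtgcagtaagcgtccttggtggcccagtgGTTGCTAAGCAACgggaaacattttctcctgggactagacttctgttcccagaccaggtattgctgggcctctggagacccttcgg
Dnah7a (chr1:53706735-53707034, minus strand): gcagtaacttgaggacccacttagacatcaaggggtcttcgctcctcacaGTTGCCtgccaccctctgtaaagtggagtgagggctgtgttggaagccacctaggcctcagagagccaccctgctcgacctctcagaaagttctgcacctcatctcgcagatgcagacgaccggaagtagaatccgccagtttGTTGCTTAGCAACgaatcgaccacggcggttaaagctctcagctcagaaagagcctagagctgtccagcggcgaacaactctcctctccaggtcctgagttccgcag
Dnah7b (chr1:46066603-46066902, plus strand): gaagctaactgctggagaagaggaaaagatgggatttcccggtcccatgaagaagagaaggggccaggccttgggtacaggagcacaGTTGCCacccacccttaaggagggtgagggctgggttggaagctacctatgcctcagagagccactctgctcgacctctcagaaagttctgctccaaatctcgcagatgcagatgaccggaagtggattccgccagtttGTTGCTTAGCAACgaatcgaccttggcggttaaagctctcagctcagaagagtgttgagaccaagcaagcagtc
The spaced form was in 3 of 10 promoters (Dnah6, Dnah7a and Dnah7b), starting at positions -36, -57 and -24 from the annotated start, and in 0.310% of 12575 promoters of tested genes. GTTGCC was in Dnah7a, Dnah7b and Dnah10, against 13.0% of all promoters. Another X-box consensus, of 14 letters, was in 0 of 10 and in 0.541% of all. The forkhead motif GTAAACA, of the class read by Foxj1, the master regulator of motile cilia, was in 0 of 10 and in 2.497% of all. The motifs were chosen after these data were seen, and a match describes letters only. The RefSeq start of Dnah12 lies 1720 bases upstream of its GENCODE M21 start, and that of Dnah7b lies 538 bases downstream of its own, so the Dnah7b match falls inside the GENCODE gene. Which start these libraries used was not tested.

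Dnah7a, Dnah7b and Dnah7c are near copies on chromosome 1, and a coding stretch of 120 bases shows how little separates their reads, with the 4 positions that differ among the copies in capitals (GENCODE M21, GRCm38).
Dnah7a (chr1:53643443-53643562, minus strand, exon 10): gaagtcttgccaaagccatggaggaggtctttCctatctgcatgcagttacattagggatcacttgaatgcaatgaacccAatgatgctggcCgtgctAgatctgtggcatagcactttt
Dnah7b (chr1:46116173-46116292, plus strand, exon 10): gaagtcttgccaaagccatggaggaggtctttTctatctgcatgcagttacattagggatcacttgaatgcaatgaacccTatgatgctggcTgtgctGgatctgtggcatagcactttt
Dnah7c (chr1:46494604-46494723, plus strand, exon 9): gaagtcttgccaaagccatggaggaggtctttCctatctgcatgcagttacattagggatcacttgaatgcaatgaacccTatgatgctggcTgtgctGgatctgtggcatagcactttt
Dnah7b and Dnah7c differed at 1 of these positions, Dnah7a and Dnah7c at 3, and Dnah7a and Dnah7b at 4. Of all 75-base windows, the read length used, 34.3% of the Dnah7b transcript, 34.5% of Dnah7c and 27.8% of Dnah7a were shared with another Dnah gene. The other 12 Dnah genes shared 0%. Reads of the Dnah7 copies may therefore have been split among them, and their separate values are uncertain. Dnah7b (chr1:46066315-46373546) and Dnah7c (chr1:46425592-46807476) are neighbours, whereas Dnah7a (chr1:53397006-53706784) lies apart.

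Libraries held between 11352989 and 24433349 reads on genes. The 10 genes together took only 164 to 1192 reads per library. Of their 220 values, 10 sat at the floor of the table (-3.15 log2 CPM, 0 reads), 5 of them in Dnah12, 4 in Dnah11 and 1 in Dnah7a. More than 10 reads were present in all 22 libraries for Dnah1, Dnah7b and Dnah9, in 12 for Dnah11 and in 5 for Dnah12, so values of the last pair carry much counting error. Libraries differed in quality: Early Vehicle 4 had 1026 and Late SAFit2 5 had 1148 genes at 0 reads, against 52 to 1148 over all libraries. Late SAFit2 3 and Late SAFit2 5 also held skeletal muscle transcripts (4 markers summing to 183 and 132 CPM, against 0.6 to 7.35 elsewhere). Calls of members are given with and without these libraries where they differ, and calls of other genes as counts.

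Measured per kilobase of transcript and averaged over all mice, Dnah1 was at 0.527 CPM per kb, the highest of the members, and Dnah12 at 0.0403, the lowest. Between them the order was Dnah7b (0.398), Dnah9 (0.216), Dnah5 (0.163), Dnah6 (0.160), Dnah2 (0.154), Dnah7a (0.112), Dnah10 (0.107) and Dnah11 (0.0545). Over all mice, the step from Dnah7b to Dnah9 exceeded the spread of the neighbours between mice, and every other pair of neighbours differed by less than that spread. The place of Dnah7b turned with the group. It was above Dnah1 in Early SAFit2 (0.551 against 0.470) and Early Vehicle mice (0.623 against 0.548) and below it in Late SAFit2 (0.214 against 0.506) and Late Vehicle mice (0.205 against 0.584). The step to Dnah9 was likewise one of early mice, since Dnah9 was at 0.164 in Late SAFit2 and at 0.228, above Dnah7b, in Late Vehicle mice. Dync1h1, the heavy chain of cytoplasmic dynein that drives transport in all cells, stood at 37.0 CPM per kb, and Dync2h1, which runs inside cilia, at 2.38. By mean log2 CPM, which takes no account of transcript length, the members lay between percentile 3.46 and 34.6 of all tested genes.

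**Figure D1:**
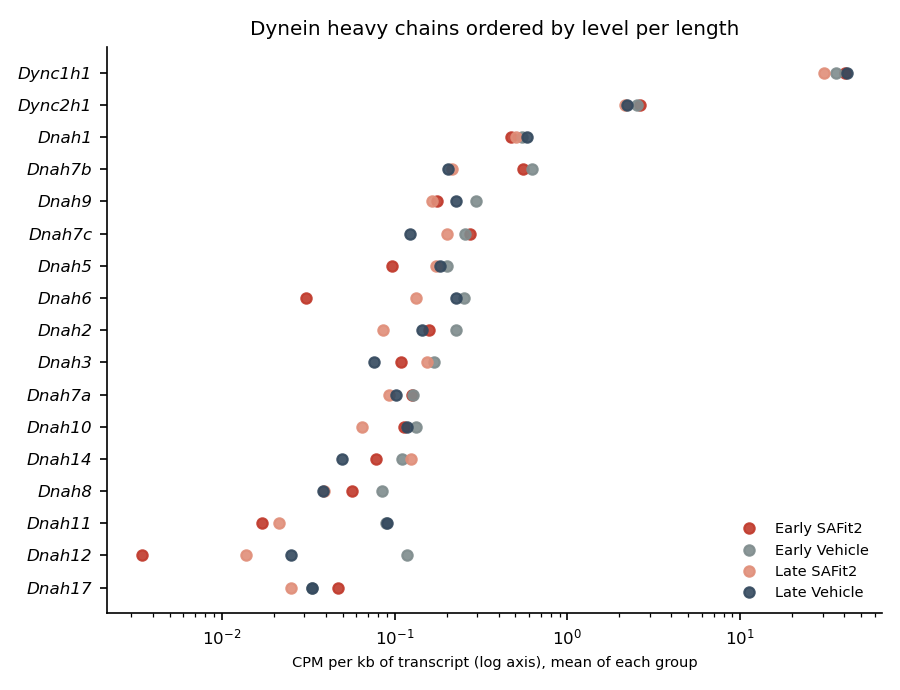
Levels of 17 dynein heavy chain genes as CPM per kilobase of transcript on a log axis, with a point for the mean of each of the 4 groups. Dync1h1 (37.0 on average) and Dync2h1 (2.38) lie above every Dnah gene, and among the members Dnah1, Dnah5, Dnah6, Dnah11 and Dnah12 have their lowest group mean in Early SAFit2.

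In early mice, dynein heavy chain levels were lower on average with SAFit2 than with Vehicle for 9 of 10 genes, with Dnah12 and Dnah6 furthest apart, but no gene passed adjustment. Of all genes tested, 0% (of 16765) were called at an adjusted p under 0.05 and 1.2-fold in this comparison, and 0 of 10 members were called. At an unadjusted p under 0.05, 4 members were lower (Dnah12, Dnah6, Dnah5 and Dnah11) and none higher, against 1.54% of all genes lower and 2.48% in either direction. Dnah12 and Dnah11 reached the filter value of -1 log2 CPM in 5 Early Vehicle libraries each, but in 0 and 1 Early SAFit2 libraries. Their place in this count, and in the median and family mean below, is therefore not independent of the filter. Fold changes were below 0 for 48.3% of all genes. The median log2 fold change was -0.61 over the members and 0.01 over all genes tested. Averaged over the 10 genes, log2 CPM ran from -0.10 to 0.61 (median 0.53) in the 5 Early SAFit2 mice and from 0.92 to 2.05 (median 1.31) in the 6 Early Vehicle mice. These ranges did not overlap, which is given as a description, since the family was chosen with this comparison known.

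**Figure D2:**
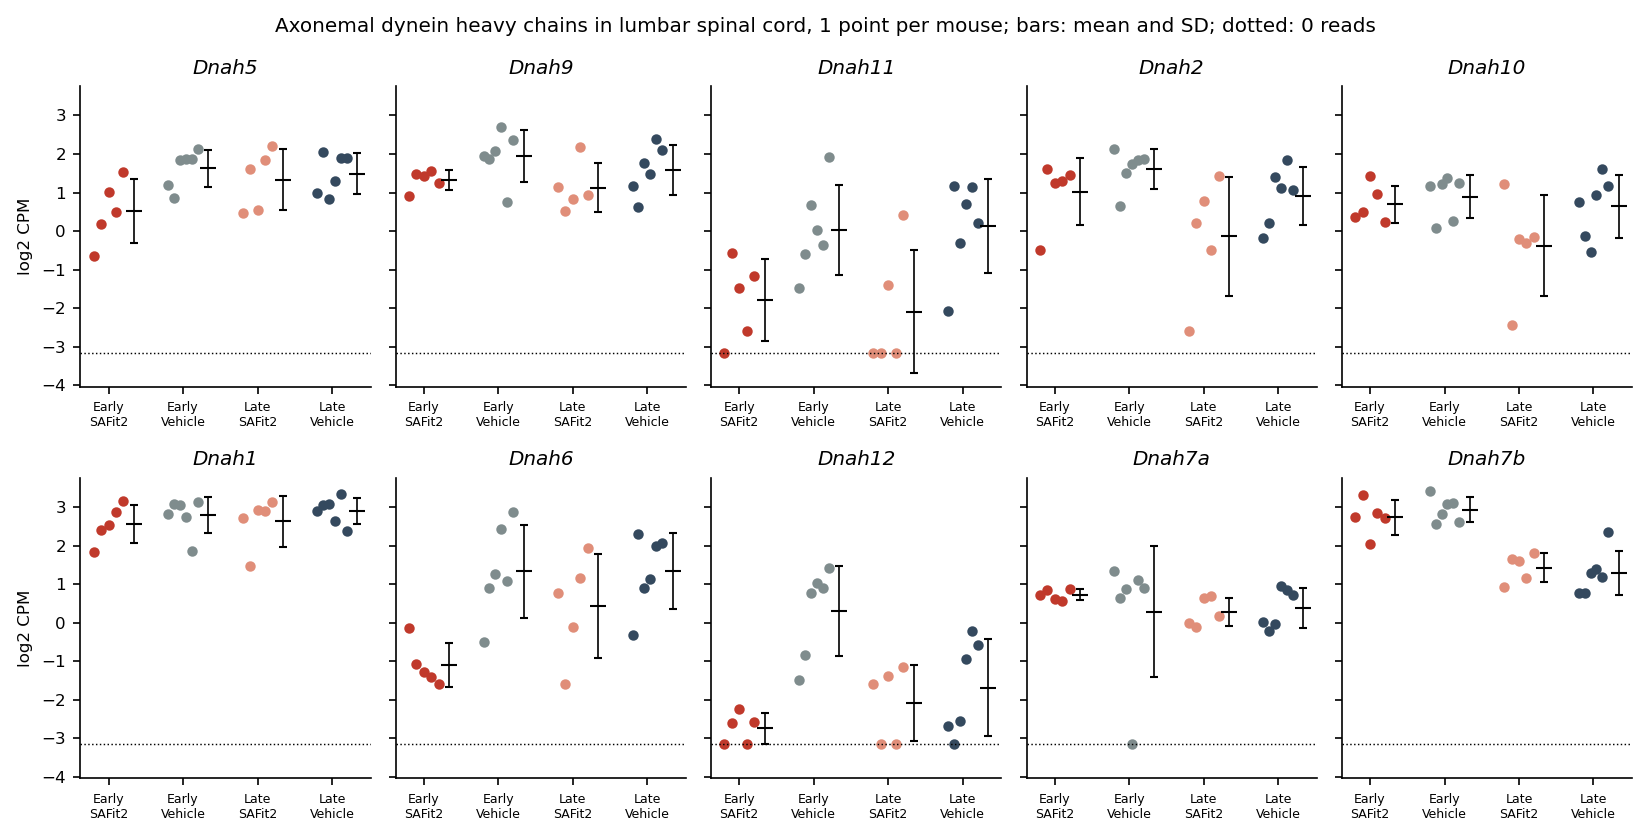
Log2 CPM of each of the 10 genes in each mouse, by group, with bars for the mean and SD and a dotted line at 0 reads (-3.15). Dnah12 sits at 0 to 2 reads in all 5 Early SAFit2 mice and at 5 to 68 reads in Early Vehicle mice, while Dnah7b separates early from late mice.

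Dnah12, a single-headed inner arm chain, had 0, 1, 2, 0 and 1 reads in Early SAFit2 mice 1 to 5, which is -3.15, -2.61, -2.23, -3.15 and -2.57 log2 CPM. In Early Vehicle mice it had 5 to 68 reads, or -1.48 to 1.42 log2 CPM with a median of 0.84. All 5 SAFit2 mice lay below all 6 Vehicle mice, which 0.268% of all genes did in this direction and 0.352% in either. The group means were -2.74 ± 0.40 (SD, n = 5) and 0.30 ± 1.17 (SD, n = 6), a log2 fold change of -3.05 (95% interval -4.32 to -1.78). The limma adjusted p was 0.665, the lowest of any gene, and the two-sided exact permutation p was 0.00433. Dnah12 entered the fit through Vehicle libraries alone: it reached the filter value of -1 log2 CPM in 5 Early Vehicle and 3 Late Vehicle libraries and in 0 SAFit2 libraries, so a gene kept for its level in Early Vehicle is compared with that group here. With 4 reads in all in the SAFit2 group against 180 in the Vehicle group, the size of the fold depends on the prior count: it was -0.70 with a pseudocount of 2 CPM, -1.66 with 0.5 CPM and -4.26 with limma voom on the reads.

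Dnah6, another single-headed inner arm chain, had 12, 7, 6, 5 and 4 reads in Early SAFit2 mice (-0.14, -1.08, -1.27, -1.42 and -1.58 log2 CPM). Early Vehicle mice had 12 to 191 reads (-0.51 to 2.87 log2 CPM, median 1.16). Only Early SAFit2 1 and Early Vehicle 1 overlapped. The log2 fold change was -2.43 (95% interval -3.62 to -1.24, exact permutation p = 0.00649), which did not pass adjustment. Dnah1, also a single-headed chain, was at 2.56 ± 0.50 (SD, n = 5) and 2.79 ± 0.47 log2 CPM (SD, n = 6), a difference of -0.23 with an interval of -0.81 to 0.35. Dnah7b was at 2.73 ± 0.45 and 2.93 ± 0.33 log2 CPM (interval of the difference -0.76 to 0.36). Dnah7a was the only member above 0, at 0.44. Early Vehicle 4 had 0 of its reads, while the other Vehicle mice were at 0.65 to 1.33 and SAFit2 mice at 0.56 to 0.88 log2 CPM. Over the 5 single-headed chains the fold changes thus ran from -3.05 to 0.44 with a median of -0.23.

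Among outer arm chains, whose median log2 fold change was -1.11, Dnah5 was at -0.64, 0.19, 1.02, 0.51 and 1.54 log2 CPM in Early SAFit2 mice and at 0.86 to 2.14 (median 1.85) in Early Vehicle mice. The groups overlapped. The difference was -1.11 (95% interval -1.89 to -0.33, exact permutation p = 0.0173, not past adjustment). Dnah11, found mainly near the cilium's base, was at -3.15, -0.56, -1.46, -2.60 and -1.16 in Early SAFit2 mice and at -1.48 to 1.93 (median -0.17) in Early Vehicle mice. Its log2 fold change was -1.82 (exact permutation p = 0.0281). Its unadjusted limma p rose above 0.05 without Early SAFit2 1 (0.0557) or without Early Vehicle 6 (0.0524). Dnah11 too was kept mainly through Vehicle mice, reaching the filter value in 5 Early Vehicle libraries and 1 Early SAFit2 library. Dnah9, placed further out along the cilium, was at 0.92 to 1.56 with SAFit2 and 0.75 to 2.71 with Vehicle, a difference of -0.62 that did not reach an unadjusted p of 0.05. The double-headed inner arm chains Dnah2 and Dnah10 differed by -0.60 and -0.20, neither below 0.05.

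**Figure D3:**
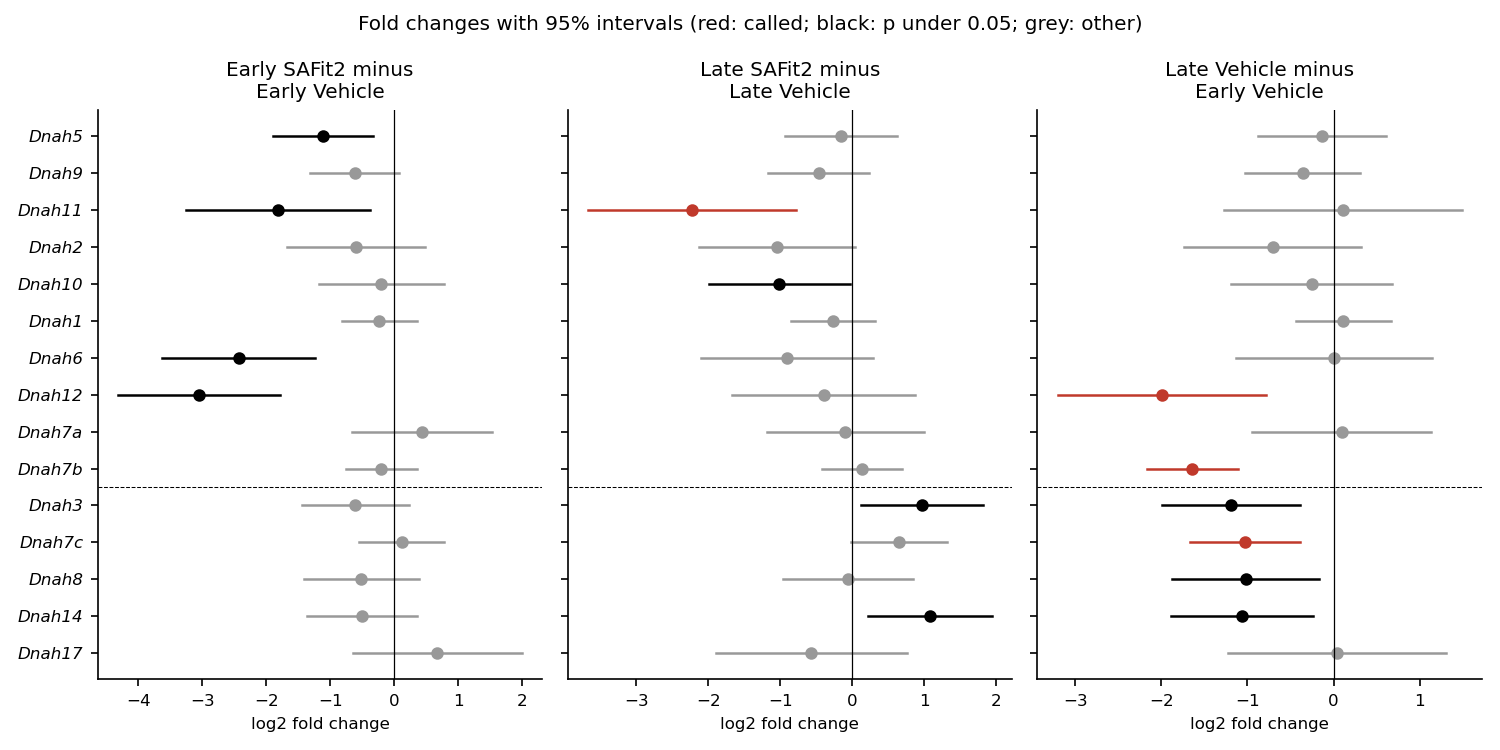
Log2 fold changes with 95% intervals for 10 members and, below the dashed line, 5 other Dnah genes, in Early SAFit2 against Early Vehicle, Late SAFit2 against Late Vehicle, and Late Vehicle against Early Vehicle. Red marks genes called after adjustment, black those at an unadjusted p under 0.05: in early mice Dnah12, Dnah6, Dnah5 and Dnah11 are black, and Dnah11 is red in late mice.

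In late mice, Dnah11 was the only member called, and it fell. Here 12.1% of all genes were called and 6.72% were called lower, so 1 of 10 members is near the background. At an unadjusted p under 0.05, 2 members were lower (Dnah11 and Dnah10), against 19% of all genes. Fold changes were below 0 for 9 of 10 members, against 53.9% of all genes, and the median was -0.43 for the members against -0.05 for all. In no member were the Late SAFit2 and Late Vehicle mice separate, whereas 1.71% of all genes did not overlap. Averaged over the 10 genes, log2 CPM ran from -0.50 to 1.07 (median 0.28) in Late SAFit2 and from 0.13 to 1.61 (median 0.87) in Late Vehicle mice.

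Dnah11 had 0, 0, 5, 0 and 11 reads in Late SAFit2 mice (-3.15, -3.15, -1.39, -3.15 and 0.43 log2 CPM) and 3 to 37 reads in Late Vehicle mice (-2.06 to 1.16, median 0.45). The libraries at 0 reads allowed up to 0.166, 0.222 and 0.300 CPM, by the limit of 3 counts that a count of 0 leaves. Late SAFit2 5 lay inside the Vehicle range. It was the only 1 of the late SAFit2 libraries at the filter value for Dnah11, against 5 Late Vehicle libraries. Early Vehicle mice had 5 such libraries as well, and Early SAFit2 mice 1. The gene was thus kept mainly through Vehicle mice, among them the group it is compared with. The log2 fold change was -2.23 (95% interval -3.67 to -0.78, limma adjusted p = 0.0441, exact permutation p = 0.0346). The call rests on single libraries: leaving out any of 12 of the 22 libraries moved the adjusted p above 0.05 (0.0502 to 0.115 in those fits), and so did 10 of 18 other settings, among them limma voom and a fit of the late groups alone. It was -2.85 (adjusted p = 0.0687) without Early Vehicle 4 and Late SAFit2 5, the libraries with most genes at 0, and -3.30 (adjusted p = 0.0755) without Late SAFit2 3 and 5, the libraries with muscle transcripts. Late SAFit2 libraries also had more genes at 0 reads (434 to 1148, against 245 to 661 in Late Vehicle) and a larger share of reads on Bc1, a short neuronal RNA (3.31% to 16.5%, against 1.32% to 7.55%), and the part of these in the result was not tested.

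Dnah2 was at -2.58, 0.20, 0.79, -0.49 and 1.43 log2 CPM in Late SAFit2 mice and at -0.18 to 1.85 in Late Vehicle mice, a difference of -1.04 with an unadjusted limma p of 0.0579. Dnah10 was at 1.22, -2.42, -0.21, -0.30 and -0.15 against -0.53 to 1.62, a difference of -1.02 (limma adjusted p = 0.132, exact permutation p = 0.145). The groups of both genes overlapped. Each gene had 1 read in a single library, Dnah2 in Late SAFit2 1 and Dnah10 in Late SAFit2 2, and without it the differences were -0.43 for Dnah2 and -0.50 for Dnah10. The median over this double-headed pair was -1.03, against -0.47 for outer arm and -0.27 for single-headed chains. The pair of genes furthest apart in early mice was closer here: Dnah12 had 4, 0, 5, 0 and 3 reads against 0 to 13 reads (log2 fold change -0.40), and Dnah6 was at -1.58 to 1.93 against -0.33 to 2.29 log2 CPM (-0.90).

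Averaging the early and late effects, 6 members (Dnah11, Dnah6, Dnah12, Dnah5, Dnah9 and Dnah2) were lower with SAFit2 at a nominal p under 0.05, the threshold set for this overall effect, and none was higher. Of all genes 7.18% were lower and 13.2% differed in either direction at this threshold. The median was -0.62 over the members and -0.02 over all genes. The largest mean effects were -2.02 for Dnah11, -1.72 for Dnah12 and -1.67 for Dnah6, each with a limma adjusted p of 0.301. Dnah11 reached the filter value of -1 log2 CPM in 5 libraries of each Vehicle group and 1 of each SAFit2 group. Dnah12 reached it in 5 early and 3 late Vehicle libraries and in 0 SAFit2 libraries. Both genes were thus kept through their Vehicle levels, which favours lower values with SAFit2. Their place among the 6 members is therefore not independent of the filter. The count was 3 to 6 as single libraries were left out, and 3 without Early SAFit2 1.

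The early and late effects were also compared directly. None of the 10 members, and 0% of all genes, had a difference between them that was called, and 1 member was below an unadjusted p of 0.05 against 24.9% of all genes. This was Dnah12, whose early effect was lower than its late effect by 2.65 on the log2 scale (difference -2.65, standard error 0.87, limma adjusted p = 0.12, exact permutation p = 0.0374). For Dnah6 the difference was -1.53 (exact permutation p = 0.209) and for Dnah11 it was 0.41 (0.772). The members' median difference was -0.05, against 0.05 for all genes. An early effect was therefore not shown to differ from a late effect for any member after adjustment.

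Between the control groups, Dnah7b and Dnah12 were lower in Late Vehicle than in Early Vehicle mice, a comparison in which timing of the gel and batch cannot be told apart. These were 2 members called lower of 10, where 5.82% of all genes were called lower and 9.11% called in all. Dnah7b was at 2.57 to 3.41 (median 2.94) log2 CPM in Early Vehicle mice and at 0.76 to 2.34 (median 1.23) in Late Vehicle mice. The groups did not overlap, which 3.6% of all genes did in this direction and 4.92% in either. The log2 fold change was -1.64 (95% interval -2.17 to -1.11), or 3.11-fold lower, with a limma adjusted p of 0.000165 and an exact permutation p of 0.00216, the smallest that 924 splits can give. The call held in every fit that left out a library and in all 18 other alternatives. Among SAFit2 mice, Dnah7b was at 2.73, 3.32, 2.05, 2.85 and 2.71 log2 CPM in early mice and at 0.92, 1.65, 1.60, 1.15 and 1.80 in late mice. These groups did not overlap either (difference -1.31, exact permutation p = 0.00794, the smallest that 252 splits can give). SAFit2 and Vehicle mice of the late groups differed by 0.13 in Dnah7b, with an interval of -0.43 to 0.69.

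Dnah12 fell from 0.30 ± 1.17 in Early Vehicle to -1.69 ± 1.26 log2 CPM in Late Vehicle mice (SD, n = 6 each), with 5 to 68 and 0 to 13 reads. The difference was -1.99 (95% interval -3.20 to -0.78, limma adjusted p = 0.0329, exact permutation p = 0.0195), and the groups overlapped. With only 3 Late Vehicle and 0 SAFit2 libraries at the filter value, Dnah12 was admitted through its level in Early Vehicle (5 libraries). The group it was called against is thus the group that kept it in the fit. The call was lost without any of Early Vehicle 3, 4, 5 or 6 or Late Vehicle 1, 2 or 3 (adjusted p 0.0621 to 0.0883). The early comparison of Dnah12 thus set the SAFit2 mice against the control group in which it was highest. Dnah6 (0.00), Dnah11 (0.11) and Dnah5 differed little on average between the control groups, and the members' median was -0.19 against 0.01 for all genes.

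Because reads may be shared among the Dnah7 copies, their summed CPM was also compared. The log2 sum was 3.52 ± 0.38 in Early SAFit2, 3.60 ± 0.34 in Early Vehicle, 2.62 ± 0.40 in Late SAFit2 and 2.37 ± 0.45 in Late Vehicle mice (SD, n = 5, 6, 5 and 6). Late Vehicle was lower than Early Vehicle by 1.24 (difference -1.24, exact permutation p = 0.00216), and Late SAFit2 than Early SAFit2 by 0.90 (difference -0.90, exact permutation p = 0.00794). The copies did not move in equal measure. Dnah7b took 57.6% and 62.6% of the reads of the 3 genes in Early SAFit2 and Early Vehicle mice, and 43.4% and 46.8% in Late SAFit2 and Late Vehicle mice (difference between Vehicle groups -15.8 percentage points, exact permutation p = 0.00649). Dnah7c was called lower in Late than in Early Vehicle mice (log2 fold change -1.03, limma adjusted p = 0.0355). Dnah7a differed by 0.09 on average, a value that depends on Early Vehicle 4, which had 0 of its reads. By median, Dnah7a was at 0.89 log2 CPM in Early Vehicle and 0.36 in Late Vehicle mice.

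**Figure D4:**
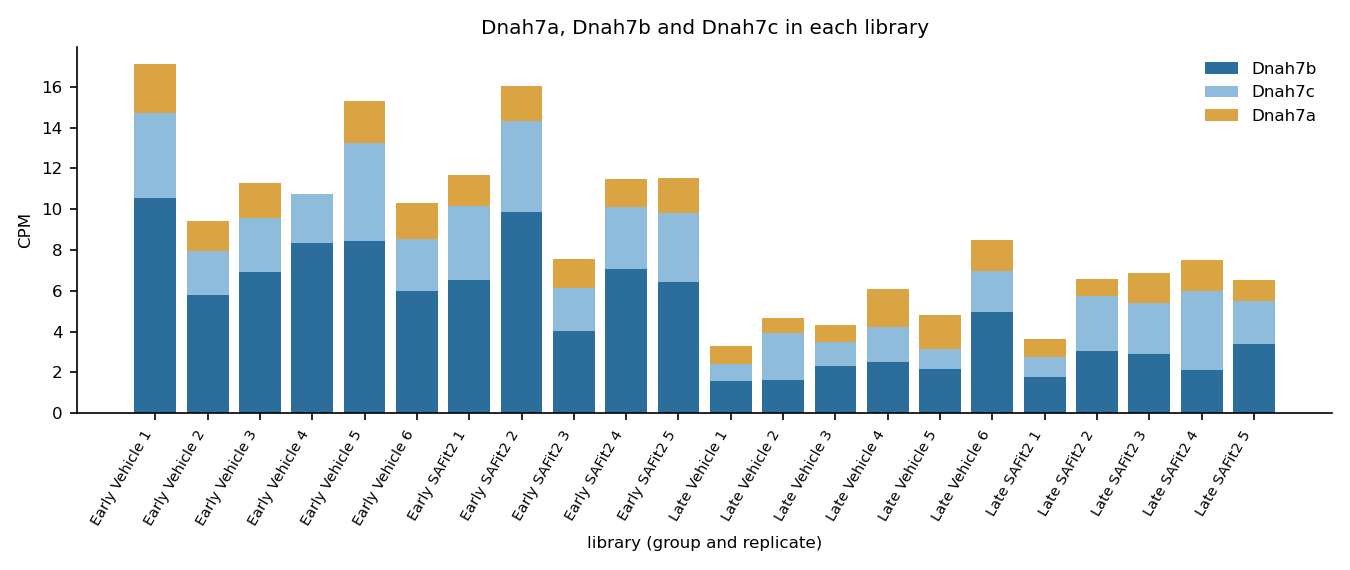
CPM of Dnah7b, Dnah7c and Dnah7a stacked for each library, by group, from 0. The summed bars are higher in early than in late mice, and most of the difference is in the Dnah7b part.

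The other 5 Dnah genes in the table (Dnah3, Dnah7c and Dnah14 of inner arms, and Dnah8 and Dnah17, outer arm chains known from sperm) were read beside the members. In early mice 0 of 5 reached an unadjusted p of 0.05, against 2.48% of all genes, with a median of -0.50. In late mice Dnah14 was at 1.08 (limma adjusted p = 0.0772) and Dnah3 at 0.97 (adjusted p = 0.0992), both higher with SAFit2 and neither called. In the Vehicle comparison 4 of 5 had an unadjusted p under 0.05 and a lower level in late mice, against 13% of all genes, and of these Dnah7c was called.

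Partner genes of the heavy chains were then read by role. In early mice, 1.54% of all genes were lower at an unadjusted p under 0.05 and 2.48% differed in either direction. Of 8 intermediate and light chains tested, which complete the dynein arms, 3 were lower at that threshold (Dynlrb2 -1.67, Dnali1 -1.50 and Dnai1 -0.52), with a median of -0.52. Of 5 docking complex genes, which fix outer arms to the doublet, 1 was lower (Odad2, -1.84, median -0.43). Of 11 nexin link and ruler genes, which space and regulate the arms, 3 were lower (Iqca -2.49, Drc7 -1.48 and Iqcg -0.82, median -0.37). None of 13 cytoplasmic assembly factors and none of 9 transcription factors of ciliated cells reached that threshold (medians -0.15 and -0.23). The cytoplasmic heavy chains Dync1h1 and Dync2h1 had a median of 0.11. None of these genes was called in early mice.

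In late mice, calls among the partners were Drc7 (-1.80, limma adjusted p = 0.0446) and Iqcd (-1.19, adjusted p = 0.037) of the nexin link, the assembly factor Dnaaf5 (-0.86, adjusted p = 0.0341), and the transcription factors Foxj1 (-0.77, adjusted p = 0.0324) and Rfx1 (-0.97, adjusted p = 0.0331), all of which fell. That is 2 of 11, 1 of 13 and 2 of 9, against 12.1% of all genes, with 0 calls among intermediate, light and docking chains. Late calls over all genes numbered 2021, but 1 without Early Vehicle 4 and Late SAFit2 5, 1 without Late SAFit2 3 and 5, and 0 with only the late groups fitted or with GC and length trends removed. Of 13 cytoplasmic dynein subunits, Dync2i2 fell (-0.66) and Dynlt3 rose (0.61). Counting these and the marker genes named further on, 13 genes of the lists were called in late mice, and 0 of 13 stayed called in any of those 4 settings (limma adjusted p 0.0621 to 0.146 without the libraries with most genes at 0, and 0.0992 to 0.598 without those with muscle transcripts). Between Vehicle groups Dnal1 (-0.41), Spag1 (-0.41), Ccdc39 (-0.96) and Gmnc (-1.33) were called lower in late mice, with adjusted p-values of 0.0211, 0.0311, 0.025 and 0.0477 by limma. In order, that is 1 of 8, 1 of 13, 1 of 11 and 1 of 9 in their lists, against 5.82% of all genes called lower. Nme8, Tctex1d1, Pih1d3, Fbxl13 and Mcidas were not analysed here, and Daw1 was below the filter.

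Markers of ciliated ependymal cells were read beside the dynein genes. In early mice 8 of 9 such markers were lower with SAFit2 at an unadjusted p under 0.05 (median -1.67, lowest Ccdc153 at -4.22), against 1.54% of all genes. Called were 0 of 9, and 0% of all genes. Foxj1 was the exception, at 0.02. Their summed level was 16.6 to 24.2 CPM (median 21.7) in Early SAFit2 and 21.2 to 57.4 CPM in Early Vehicle mice, ranges that overlapped. Foxj1 was the highest of these markers, at 4.11 and 4.08 log2 CPM on average in these groups. It thus weighs most in the sums, which follow the markers that were lower less closely. Late sums were 20.3 to 64.0 CPM with SAFit2 and 29.1 to 78.0 CPM with Vehicle. There 1 of 9 was called (Foxj1), near the 12.1% of all genes. For the mean effect 9 of 9 were lower at a nominal p under 0.05, against 7.18% of all genes. Of 5 ependymal markers not tied to cilia, 1 (Nnat, -0.57) was lower in early mice at an unadjusted p under 0.05, against 1.54% of all genes. Their sums overlapped at 191 to 251 and 243 to 287 CPM. Dynlrb2 and Foxj1 stand in a partner list and in this marker list.

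**Figure D5:**
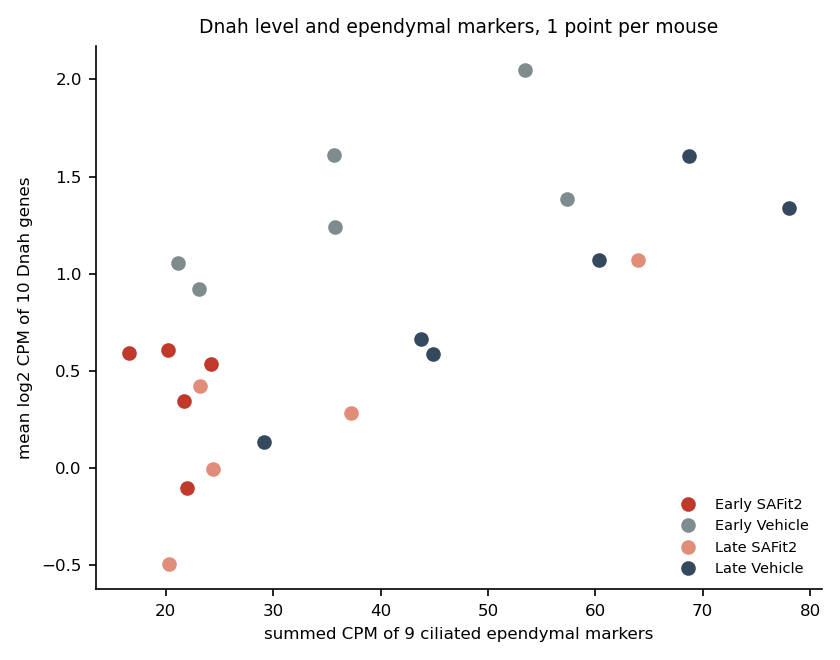
Mean log2 CPM of the 10 dynein genes in each mouse against the summed CPM of 9 ciliated ependymal markers, with a point per mouse coloured by group. Foxj1 had the highest mean log2 CPM of these markers in every group and weighs most in the sum. Early SAFit2 mice lie at the lower left (means of -0.10 to 0.61), below Early Vehicle mice (0.92 to 2.05), and Late SAFit2 mice spread from lower still to the middle (-0.50 to 1.07).

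Markers of other cell types and tissues were read the same way. Choroid plexus, which also bears motile cilia, had sums of 7.9 to 11.1 CPM in Early SAFit2, 8.0 to 12.9 in Early Vehicle, 6.95 to 16.015 in Late SAFit2 and 9.4 to 13.7 in Late Vehicle mice over 4 markers, and its defining genes Ttr and Otx2 were not analysed here. In early mice 1 of these 4 markers (Folr1, -1.56) and 2 of 5 markers of cerebrospinal fluid contacting neurons were lower at an unadjusted p under 0.05. Of all genes, 1.54% were lower at that threshold and 2.48% differed in either direction. None of 6 neuronal, 5 oligodendrocyte, 5 microglial, 3 endothelial, 4 meningeal, 4 skeletal muscle, 3 red cell or 5 lumbar Hox markers, nor the forebrain gene Neurod6, reached that threshold, and 1 of 5 astrocyte markers did (Gfap, -0.30). Calls in late mice were Clic6 of choroid plexus (-0.92), Pkd1l2 of fluid-contacting neurons (-1.75), Rarres2 of ependyma (-0.86), Slc32a1 of inhibitory neurons (-0.55), Cldn5 of endothelium (-0.53) and Tnnt3 of muscle (3.30), the last in the group that held both libraries with muscle transcripts. There 12.1% of all genes were called. Between Vehicle groups, where Dnah7b and Dnah12 fell, Clic6 (0.96), Slc32a1 (0.59), the astrocyte genes Slc1a2 (0.46) and Gja1 (0.47), Pecam1 of endothelium (0.48), the globin Hbb-bs (0.64) and Hoxc10 (0.29) were called higher in late mice. These were 1 of 4 choroid plexus, 1 of 6 neuronal, 2 of 5 astrocyte, 1 of 3 endothelial, 1 of 3 red cell and 1 of 5 lumbar markers. Of all genes 9.11% were called in this comparison, so single calls of this kind are not read as a shift of a cell type. Of 12 genes of the lists called between Vehicle groups, 5 stayed called with only those groups fitted and 8 without the libraries with most genes at 0. The ciliated ependymal list had 0 of 9 called there and a median of 0.51. The part of these cell types in the dynein values was not tested.

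Genes whose level followed the family mean most closely over the 22 libraries, after removing group means, were Nnat (Pearson r = 0.863), Akap14, Cfap70, Rsph4a, 2410004P03Rik, Vwa3a, Ttc21a, Cdhr3, Fsip1 and Ak7 (r = 0.790). The libraries differed in depth, and how much of the central canal each held is not known, so the r values describe them only. Rsph4a is a radial spoke head protein and Cfap70 an axonemal protein of cilia. In early mice their log2 fold changes were -0.57 for Nnat, -1.39 for Rsph4a, -1.58 for Ak7 and -2.28 for 2410004P03Rik, none called. Within the family, Dnah11 followed the mean of the remaining members most closely (r = 0.692), then Dnah12 (0.623), Dnah2 (0.466) and Dnah6 (0.451), whereas Dnah7b (0.125) and Dnah7a (-0.02) did not. Over the 45 pairs of members r ran from -0.319 to 0.616 with a median of 0.165, a loose relation at these read numbers.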

How the data were processed

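RNA was sequenced from lumbar cord of 22 mice (dorsal horn quadrants of the injured side by the methods, L4-L6 cord by the labels), grouped by the labels. The authors trimmed reads with Trimmomatic, aligned them to mm10 with HISAT2 (tools and build named in the submitters' processing notes), counted them per gene with featureCounts and scaled libraries with edgeR. The deposited values are log2 CPM per gene, with a floor of -3.15. Reads worked back from them were whole in 100% of values (tolerance 0.02 reads) and gave depth (11352989 to 24433349 reads on genes) and the limma voom alternative. No count test other than voom was run on them.

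Fits used limma 3.58.1 in R 4.3.3 on the deposited values, with a mean per group, a variance trend, and 16765 genes at log2 CPM of at least -1 in 5 libraries. p-values were adjusted by Benjamini-Hochberg over all of them. A call needed an adjusted p under 0.05 and 1.2-fold, and the mean effect a nominal p under 0.05. For each member, exact two-sided permutation tests over the mice were added. The labels name separate samples, and the spread is between mice of a group. Intervals and floors from reads cover counting error only.

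The fit was tested on simulated counts drawn with a common spread. Only genes with a higher mean CPM than Dnah11 and Dnah12 were changed there, so the test does not bear on either gene. Members and gene lists were chosen with earlier results of these data known. Named were all members, list genes called in any comparison or otherwise the 3 with the lowest early p, of which some are given by count only, and the 10 genes most like the family. Alternatives covered filters, pseudocounts, normalization, variance models, GC content, replicate block and omitted libraries. Figures used Python 3.11.15 and matplotlib 3.10.9.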

Additional observations from a re-analysis of the deposited data

Results flagged for a closer look

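In 4 of the 60 sets of gene and group examined, a single mouse lay apart from the rest of its group, where chance gives about 1 in 20. Dnah1 was at 1.87 log2 CPM in Early Vehicle 5, against 2.75 to 3.13 in the other mice of that group. Dnah1 was at 1.47 in Late SAFit2 2, against 2.71 to 3.13. Dnah2 was at -0.50 in Early SAFit2 1, against 1.25 to 1.61. Dnah7a was at -3.15, 0 reads, in Early Vehicle 4, against 0.65 to 1.33.

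The early effect of SAFit2 differed from its late effect at an unadjusted p under 0.05 for 3 of 15 Dnah genes, against 24.9% of all genes, and none passed adjustment: Dnah12 by -2.65, Dnah14 by -1.58 and Dnah3 by -1.57 on the log2 scale. In late mice Dnah14 and Dnah3 were higher with SAFit2 on average and Dnah12 was not.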

How the results depend on the processing

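Of 998 values recomputed for 25 results, 885 were classed as the same, 0 as reversed, 77 as losing a threshold and 36 as moved. For single genes, the same meant an unchanged sign and side of the threshold, and reversal was judged for these only. For counts it meant an equal or nearly equal count, and for medians a shift under 0.469 on the log2 scale. A median could therefore change sign unmarked: that of the early minus late difference ran from -0.26 to 0.11 as libraries were left out. The cause of each shift below was not tested. In early mice the members called were 0, and 2 (Dnah12 and Dnah6) with quality weights. In late mice 1 was called, and 0 with pseudocounts of 0.5 or 2, without a variance trend, with voom, with quantile scaling, with only the 2 groups compared, with GC and length trends removed (with or without the replicate block), and without the libraries with most genes at 0 or those with muscle transcripts, both left out by a choice made after seeing the data. Leaving out a library gave 0 to 1 called in late mice, 3 to 6 for the mean effect, 0 to 1 for the early minus late difference and 1 to 2 between Vehicle groups. The early minus late difference gave 1 (Dnah12) with quality weights. Between Vehicle groups 1 remained called of 2 with a stricter filter, which Dnah12 did not pass, with quantile scaling, with only the 2 groups, and without the libraries with most genes at 0. Medians moved less than the spread between mice (early -0.72 to -0.37, late -0.68 to -0.24 as libraries were left out).

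Over all genes, late calls numbered 2021, but 62 without a variance trend, 876 with voom, 0 with only the 2 groups or with GC and length trends removed, 116 with those removed and the block, 4219 with the block, 6381 with quality weights and 1231 with quantile scaling, and 1 without either pair of doubted libraries. Totals without Bc1 and mitochondrial reads moved the median of all genes to -0.104 between Vehicle groups. Same-numbered mice of a timing correlated at -0.236 to 0.317 after group means were removed, over 0.1 in 2 of 10 pairs. With so few pairs and no reference from other pairs, these values cannot show whether replicate numbers pair the mice. With the replicate block, 0 members were called in early mice, 1 in late mice (Dnah11, adjusted p = 0.016), 5 passed for the mean effect and 2 between Vehicle groups. Depth limits Dnah12 and Dnah11 most, with medians of 3.5 and 11 reads per library.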
